A study of Mus musculus with 3 samples.

Results

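Sonic hedgehog signalling was followed gene by gene in 3 mouse rhabdoid tumours profiled by single-cell RNA sequencing. The gene set was a list of symbols: the ligand Shh, the receptors and co-receptors Ptch1, Hhip, Boc and Cdon, the transducer Smo, and the transcription factors Gli1, Gli2 and Gli3. All 9 symbols were found in each of the 3 tumours, among 31053 genes in the count matrices. The question was which cells carried the ligand and which carried the genes it is known to switch on. The tumours came from 3 different mice, 1 tumour per mouse, and the labels place them in a single group, R26-SHH. All the mice had the genotype Rosa 26-CreERT2::Smarcb1flox/flox, in which tamoxifen activates a Cre recombinase at a locus expressed in most cell types, so that loss of Smarcb1 is not limited to 1 lineage. Smarcb1 encodes a core subunit of the SWI/SNF chromatin remodelling complex. The cells of the mouse tumours were not sorted, the sample titles carry the codes P26, P27 and P87 for tumours 1, 2 and 3, which the labels do not explain, and no tumour of another genotype or molecular group was compared here. Every comparison was therefore between classes of cells inside the same 3 tumours, and n beside a mean or SD is the number of tumours.

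Hedgehog ligands are secreted proteins that bind Ptch1 on the receiving cell. Unbound Ptch1 keeps the membrane protein Smo inactive. Ligand binding releases Smo, and the Gli2 and Gli3 proteins then shift from repressor to activator forms. Gli1, Ptch1 and Hhip are themselves transcribed in response, so their transcripts are widely used as a readout of the pathway, while Ptch1 and Hhip also hold the ligand back. In the embryonic nervous system Shh comes from the notochord, the floor plate and ventral forebrain regions, and it patterns ventral progenitors.

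The upstream regions of the target genes are shown for Ptch1 and Hhip, the 2 targets whose levels in cells with and without Shh are compared below. Each window runs from 250 bases before to 50 bases after a RefSeq start site in GRCm38.p6, on the minus strand at chr13:63565686-63565985 for Ptch1 and chr8:80057959-80058258 for Hhip. Capitals mark the core of the Gli binding motif, CCACCC or GGGTGG, searched on both strands.
Ptch1: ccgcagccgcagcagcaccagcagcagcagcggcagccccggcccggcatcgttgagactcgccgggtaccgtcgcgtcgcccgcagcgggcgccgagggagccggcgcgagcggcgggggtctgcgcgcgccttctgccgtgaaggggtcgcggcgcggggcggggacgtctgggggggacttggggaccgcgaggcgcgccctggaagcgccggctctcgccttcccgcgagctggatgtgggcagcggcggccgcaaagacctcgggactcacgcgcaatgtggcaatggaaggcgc
Hhip: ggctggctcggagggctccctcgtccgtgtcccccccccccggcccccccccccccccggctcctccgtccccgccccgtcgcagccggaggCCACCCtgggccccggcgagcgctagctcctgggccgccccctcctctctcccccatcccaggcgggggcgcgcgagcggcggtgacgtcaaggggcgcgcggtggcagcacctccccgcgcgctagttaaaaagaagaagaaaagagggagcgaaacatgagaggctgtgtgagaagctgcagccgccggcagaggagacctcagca
The Hhip window held the core once, beginning 158 bases before the start site, and the Ptch1 window did not hold it. Ptch1 has 10 annotated transcripts and its annotation extends upstream to 63573598, so this window lies inside the gene. Its other start sites were not searched. The core was present in 4 of the 6 genes of the set found in the promoter table (Gli2, Gli3, Smo and Hhip, with 2 matches in Gli2) and in 31.5% of all 32851 promoter windows. The longer motif GACCACCCA or TGGGTGGTC was in 0 of the 6 and in 0.253% of all windows. A match is a description of the sequence only, and the windows of Shh, Gli1 and Boc were not examined here.

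After quality and doublet filters 8846, 7153 and 4814 cells remained in tumours 1, 2 and 3, with a median of 7140, 2382 and 8076.5 UMIs (unique molecular identifiers, each standing for 1 captured transcript) per cell. Cells were gated by summed markers into progenitor-like (Dlx1, Dlx2 and others), neuronal-like (Dcx, Stmn2, Tubb3), stem-like (Sox2, Sox9, Nes) and mesenchymal-like (Twist1, Col1a1, Lgals1) tumour states, and into non-tumour classes. None of the 9 genes belongs to a marker list. Of 9413 cells in the tumour states, 2080 (22.1%) passed more than 1 tumour gate and were placed by the stronger score, and 29.8%, 38.0% and 51.6% of the cells of tumours 1, 2 and 3 passed no gate. Smarcb1, the targeted gene, lay between 0.318 and 2.14 CPM (the UMIs of a gene scaled to a common UMI total for every class sum) in the tumour states and the ungated cells of every tumour, against 19.2 to 29.3 in immune cells and 42.3 to 72.9 in vascular cells. The astrocyte-like gate went against its label in tumour 1, where Smarcb1 had 0 of 635064 UMIs. Between 22 and 42 barcodes were shared by each pair of tumours, of which 12 to 15 were kept.

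Shh transcripts were densest in mesenchymal-like cells and close to absent in immune cells. The gene lies on chromosome 5 (ENSMUSG00000002633, 28456815 to 28467256, minus strand). In mesenchymal-like cells Shh reached 45.0, 22.6 and 98.7 CPM in tumours 1, 2 and 3 (mean 55.4 ± 39.1, SD, n = 3). Stem-like cells held 28.3, 20.3 and 9.86. Progenitor-like cells held 10.5, 11.5 and 2.83. Within each tumour the order was therefore the same, mesenchymal-like above stem-like above progenitor-like, although the ranges over tumours overlapped between neighbouring classes. Neuronal-like cells had 10.8 and 10.2 in tumours 1 and 2, and 0 of 972996 UMIs in tumour 3, which allows up to 3.79 (exact 95% Poisson interval). Immune cells, used as the measure of free RNA in the droplets, had 1.29, 0.504 and 1.36, from 7, 2 and 3 UMIs. Endothelial cells had 2 UMIs of Shh in all tumours together. Mural cells had 5, at 4.04, 6.24 and 2.97 CPM, above every immune value, but the exact 95% Poisson intervals of the 2 classes overlapped in each tumour.

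**Figure D1:**
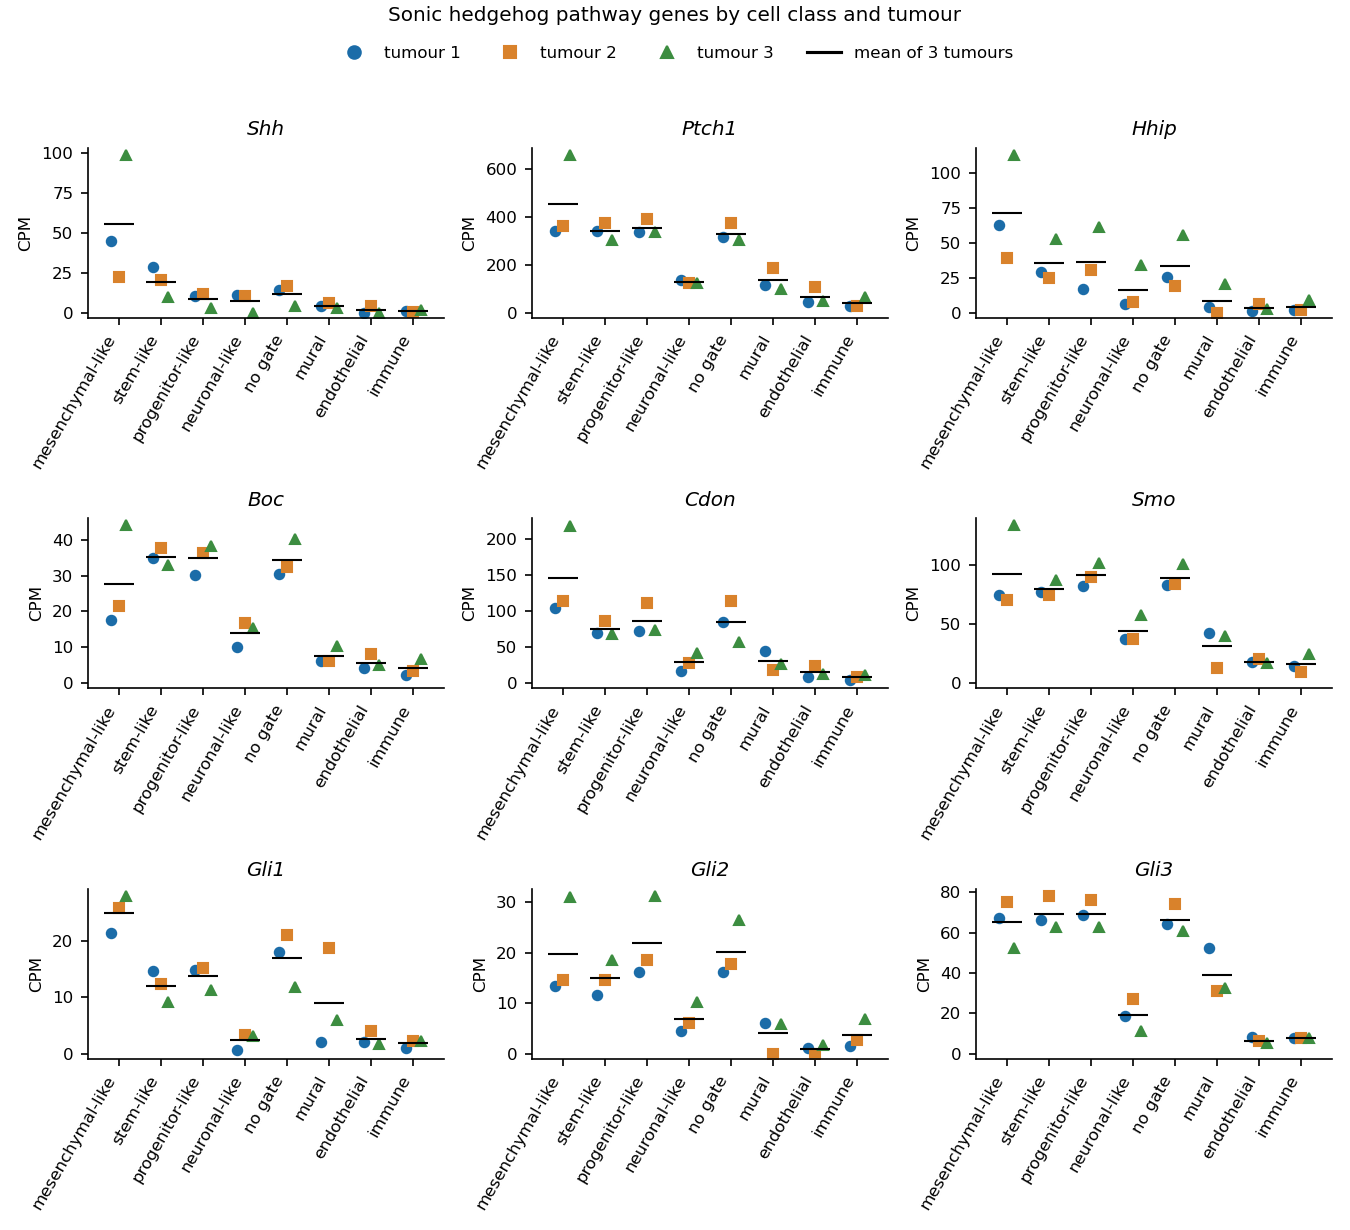
Level of each of the 9 genes in CPM (vertical axis, linear, own scale per panel) by cell class (horizontal axis); points are tumours 1, 2 and 3 and the bar is their mean. Shh is highest in the mesenchymal-like cells of tumour 3 at 98.7, whereas Ptch1 lies between 301 and 391 in stem-like, progenitor-like and ungated cells of every tumour.

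A small share of cells held the ligand at equal depth. With each cell thinned to 2000 UMIs, 121 of 4099 tumour-state cells of tumour 1 had a Shh UMI (2.95%, exact 95% binomial interval 2.46 to 3.52%). Cells under 2000 UMIs were left out, so the shares describe the deeper cells of each class. In tumours 1, 2 and 3 this removed 6.60%, 18.0% and 8.11% of progenitor-like, 17.8%, 33.2% and 25.4% of stem-like, 4.72%, 10.5% and 2.08% of mesenchymal-like, 19.9%, 45.7% and 10.3% of neuronal-like and 42.6%, 26.5% and 45.1% of immune cells. Tumour 2 had a Shh UMI in 54 of 2082 tumour-state cells (2.59%) and tumour 3 had 19 of 1549 (1.23%, interval 0.740 to 1.91%). Among immune cells no UMI of Shh was seen in 546, 517 and 146 cells, which allows shares of up to 0.549%, 0.580% and 2.05% when 3 counts are taken as the limit of a count of 0, a rule narrower than the exact interval. The tumour-state shares of tumours 1 and 2 were above these limits, and that of tumour 3 was not. Intervals and limits cover counting error only. The share was 6.03%, 3.68% and 10.6% in mesenchymal-like cells, 3.27%, 3.27% and 2.61% in stem-like cells and 2.16%, 1.75% and 0.294% in progenitor-like cells. Without thinning, which lets deeper cells show more genes, the mean share over tumours was 5.21% in place of 2.26%.

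Most Shh transcripts nevertheless came from classes other than the mesenchymal-like one, because that class was small. Mesenchymal-like cells made up 5.51%, 4.67% and 0.997% of the cells and gave 20.1%, 13.5% and 27.4% of the 1197, 474 and 336 Shh UMIs. Stem-like cells gave 38.8%, 31.2% and 23.8%. Ungated cells gave 19.2%, 33.1% and 27.4%, and progenitor-like cells 16.4%, 15.2% and 19.6%. Ptch1 UMIs were spread differently, with 9.28%, 9.56% and 3.36% from mesenchymal-like cells and 32.0%, 22.9% and 42.9% from progenitor-like cells. In all 3 tumours the mesenchymal-like share of Shh was above that of Ptch1. Genes for the other hedgehog ligands were near 0, with Dhh at 0.497, 0.539 and 1.67 CPM over all cells and Ihh at 0.0146, 0.170 and 0.164.

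**Figure D2:**
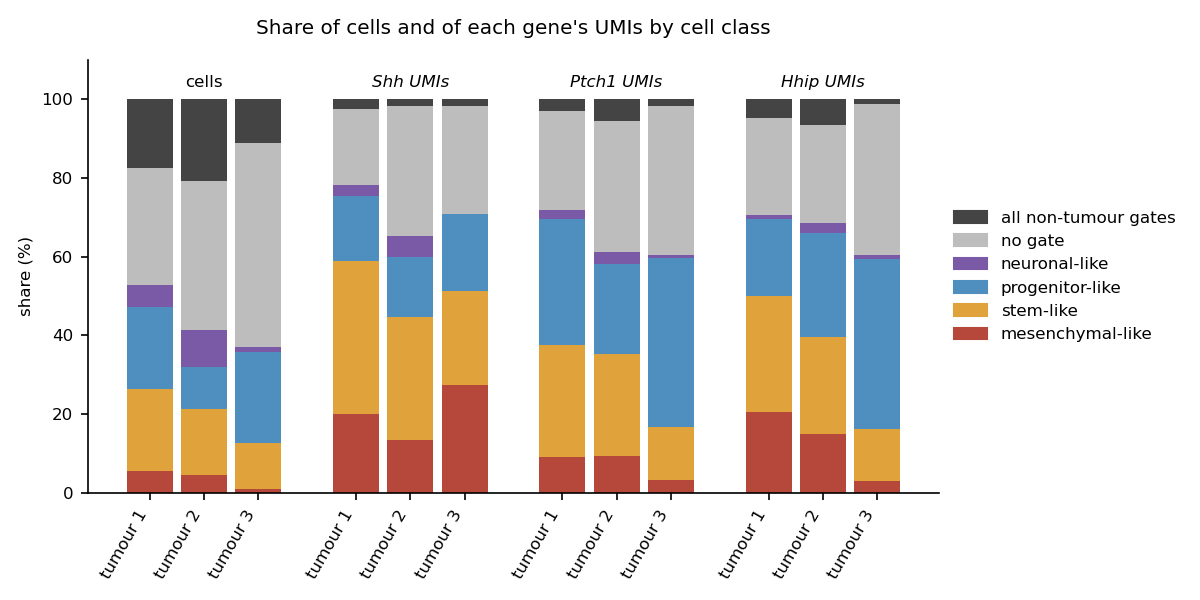
Stacked bars of the share (%, vertical axis) of cells and of the UMIs of Shh, Ptch1 and Hhip that came from each cell class, for tumours 1, 2 and 3, with the non-tumour gates drawn as 1 class. In tumour 3 the 48 mesenchymal-like cells are 0.997% of the cells and hold 27.4% of the Shh UMIs, against 3.36% of the Ptch1 UMIs.

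Ptch1 was carried by far more cells than the ligand. Ptch1, the receptor (ENSMUSG00000021466, chromosome 13, 63508328 to 63573598, minus strand), was measured at 342, 359 and 656 CPM in mesenchymal-like cells. Progenitor-like cells held 337, 391 and 335, and stem-like cells 339.9, 375 and 301. Neuronal-like cells had 134, 125 and 122, below every progenitor-like, stem-like, mesenchymal-like and ungated value, and immune cells 28.4, 27.7 and 66.8. At 2000 UMIs per cell a Ptch1 UMI was found in 38.0%, 39.3% and 36.5% of tumour-state cells and in 5.13%, 5.80% and 10.3% of immune cells. Neuronal-like cells lay between these, at 21.8%, 20.3% and 19.7%.

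Gli1, the transcription factor whose own transcription follows the pathway (ENSMUSG00000025407, chromosome 10, 127329882 to 127341974, minus strand), was sparse. It stood at 21.3, 25.8 and 27.9 CPM in mesenchymal-like cells, above all values in progenitor-like cells (14.7, 15.2 and 11.2) and stem-like cells (14.6, 12.3 and 9.12). Neuronal-like cells had only 2, 8 and 3 UMIs of Gli1, that is 0.637, 3.26 and 3.08 CPM, within reach of the immune cells at 0.922, 2.27 and 2.27. Hhip, a membrane protein that binds the ligand and holds it (ENSMUSG00000064325, chromosome 8, 79965851 to 80058006, minus strand), was found at 62.9, 38.9 and 113 in mesenchymal-like cells, 29.3, 24.6 and 52.6 in stem-like cells and 16.9, 30.8 and 61.0 in progenitor-like cells. Tumour 3 had the highest Hhip level in each of the tumour classes and in immune cells, where it was 9.08 against 2.03 and 1.51. Exons of Shh overlap 2 non-coding genes on the other strand and exons of Gli1 overlap Arhgap9 and a non-coding gene there, and whether the counting used strand is not given in the sources used here.

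The co-receptors and the transducer were present in every tumour state. Cdon, a surface protein that helps present the ligand to Ptch1, was at 104, 113 and 218 CPM in mesenchymal-like cells and at 72.3, 111 and 73.6 in progenitor-like cells. Boc, its relative, was at 17.7, 21.6 and 44.0 in mesenchymal-like cells and at 30.2, 36.2 and 38.1 in progenitor-like cells. Smo was at 74.5, 70.3 and 134 in mesenchymal-like cells and at 82.5, 89.9 and 102 in progenitor-like cells. The ranges of these classes overlapped for each of the 3 genes, and all 3 were lower in neuronal-like cells (Smo 37.6, 37.4 and 57.6) than in progenitor-like cells of every tumour.

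Gli3, mainly a repressor in the absence of ligand, was even over the tumour states other than the neuronal-like. It measured 67.4, 75.3 and 52.6 CPM in mesenchymal-like cells, 66.1, 78.2 and 62.8 in stem-like cells and 68.8, 76.1 and 62.7 in progenitor-like cells. Mural cells held 52.5, 31.2 and 32.7, neuronal-like cells 18.8, 26.9 and 11.3, and immune cells 7.93, 7.81 and 7.72. Neuronal-like values lay below all those of the other tumour states and above all immune values. Gli2, mainly an activator, measured 16.1, 18.6 and 31.2 in progenitor-like cells and 4.46, 6.10 and 10.3 in neuronal-like cells. Mesenchymal-like and stem-like values of Gli2 overlapped the progenitor-like ones. In the order of tumour states, ungated, mural, endothelial and immune cells, no 2 neighbours were separated for Shh or Hhip, whereas for Ptch1 the tumour states other than the neuronal-like and the ungated cells lay above mural cells without overlap.

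All 9 genes were higher in tumour-state cells than in immune cells. This was tested on UMI counts summed per tumour and class with the edgeR quasi-likelihood test, with the tumour as a block and Benjamini-Hochberg adjustment over the 13264 genes tested. The fit of classes held 27 sums and the fit of cycling cells below 16, several from each tumour. Their p-values therefore measure the spread over these sums, not that between mice alone. Shh was higher by 3.36 on the log2 scale (SE 0.75, adjusted p 4.55e-04) and Ptch1 by 2.28 (SE 0.25, adjusted p 4.38e-08). Hhip, Cdon, Boc, Gli3, Gli1, Smo and Gli2 were higher by 2.61, 2.57, 2.15, 2.05, 1.89, 1.60 and 1.53. Each rose in 3 of 3 tumours. Against this count of 9 of 9, 66.6% of all genes tested were called in either direction, 35.3% higher and 31.3% lower, and the median difference was 2.15 in the set and 0.13 over all genes. Of 24 other pathway genes tested (28 in the list), 17 were higher and 0 lower, led in size by Lrp2, Sfrp1, Gas1, Ccnd2, Mycn and Scube3 (3.80 to 2.18). Of 6 housekeeping genes, 5 were lower and 1 higher (median -0.98). Cells thinned to 2000 UMIs left 5 of the set in the test, and all 5 were called.

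In vascular cells 3 of the 9 genes were higher than in immune cells. Mural cells had 115, 187 and 99.6 CPM of Ptch1 and 44.5, 18.7 and 26.8 of Cdon, and endothelial cells 43.3, 105 and 49.3 of Ptch1. In endothelial cells alone Gli3 ran from 5.01 to 8.24 CPM and Cdon from 8.24 to 24.2. Both overlapped immune cells, at 7.72 to 7.93 and 4.42 to 11.8, whereas mural cells held 31.2 to 52.5 of Gli3. Endothelial and mural cells together exceeded immune cells for Cdon by 1.02, Ptch1 by 0.73 and Gli3 by 0.65 on the log2 scale (edgeR adjusted p 0.0377, 0.0313 and 0.0392), in 3 of 3 tumours. These were 3 of 9 genes, beside 41.4% of all genes called, 18.0% higher and 23.4% lower. None of the 3 was called without tumour 1 or without tumour 2, nor with cells thinned to 2000 UMIs. Among the other pathway genes 12 of 24 were higher and 0 lower. The largest were Foxf1 (9.66) and Foxf2 (8.03), mesenchymal transcription factors listed as hedgehog targets.

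Glial classes could be compared with immune cells in tumours 1 and 2 only. Oligodendrocyte-like cells had 123 and 46.4 CPM of Hhip, from 45 and 30 UMIs, and 148 and 148 of Ptch1. Astrocyte-like cells had 299 and 346 of Ptch1 and 15.7 and 8.19 of Hhip, and precursor-like (OPC) cells 100.3 and 65.0 of Ptch1. Hhip was thus higher in oligodendrocyte-like than in the other 2 glial classes in both tumours. Of the 9 genes, 6 were higher in glial than in immune cells, beside 54.1% of all genes called, 25.7% higher and 28.4% lower: Hhip (2.38), Gli1 (1.94), Boc (1.69), Ptch1 (1.5), Cdon (1.16) and Gli3 (0.97). Without the astrocyte-like gate, whose cells had 0 Smarcb1 UMIs in tumour 1, 4 were called and Hhip differed by 2.67 (edgeR adjusted p 0.00426). Gli1 (1.07, edgeR adjusted p 0.188) and Cdon (0.64, adjusted p 0.374) then fell short. The highest Gli1 level in any tumour was 50.8 CPM in astrocyte-like, 8.23 in oligodendrocyte-like and 7.23 in OPC cells. The fit without tumour 2 leaves tumour 1 as the only source of glial sums. In it the variation of glial cells between tumours is assumed to be like that of the other classes.

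Neuronal-like cells had less of every receptor, transducer and Gli gene of the set than progenitor-like cells, but not measurably less of the ligand. Of the 9 genes, 8 were lower, beside 25.0% of all genes called, 14.3% higher and 10.7% lower. Gli1 fell by 2.86 on the log2 scale (SE 0.45, edgeR adjusted p 6.14e-05), Gli3 by 1.92, Gli2 by 1.77 and Cdon by 1.75. Ptch1 fell by 1.55 (SE 0.27, adjusted p 1.83e-04), Hhip by 1.51, Boc by 1.39 and Smo by 1.17. The 8 genes fell in 3 of 3 tumours. Shh differed by -0.06 (SE 0.64, adjusted p 0.971), and its standard error leaves room for differences of either sign. The median was -1.55 in the set and 0.03 over all genes. Among 24 other pathway genes 6 were lower and 2 higher, including the cilium proteins Evc2 (-1.91) and Evc (-1.49), the co-receptor Gas1 (-1.68), the cell cycle gene Ccnd1 (-1.46), Mycn (-1.45) and, higher, Prkacb (0.75), a catalytic subunit of protein kinase A. Neuronal-like cells were shallower than progenitor-like cells, with medians of 6310.5, 2177 and 13287 against 9559, 7247 and 19393.5 UMIs, and fewer were cycling (0.813%, 0.151% and 1.47% against 6.71%, 6.39% and 15.3%). With cells thinned to 2000 UMIs the 5 genes still tested (Ptch1, Gli3, Cdon, Smo and Hhip) were all called lower, with differences from -1.98 to -1.39. With classes taken from clusters in place of gates, 4 were called. The part of cycling in the result was not tested.

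**Figure D3:**
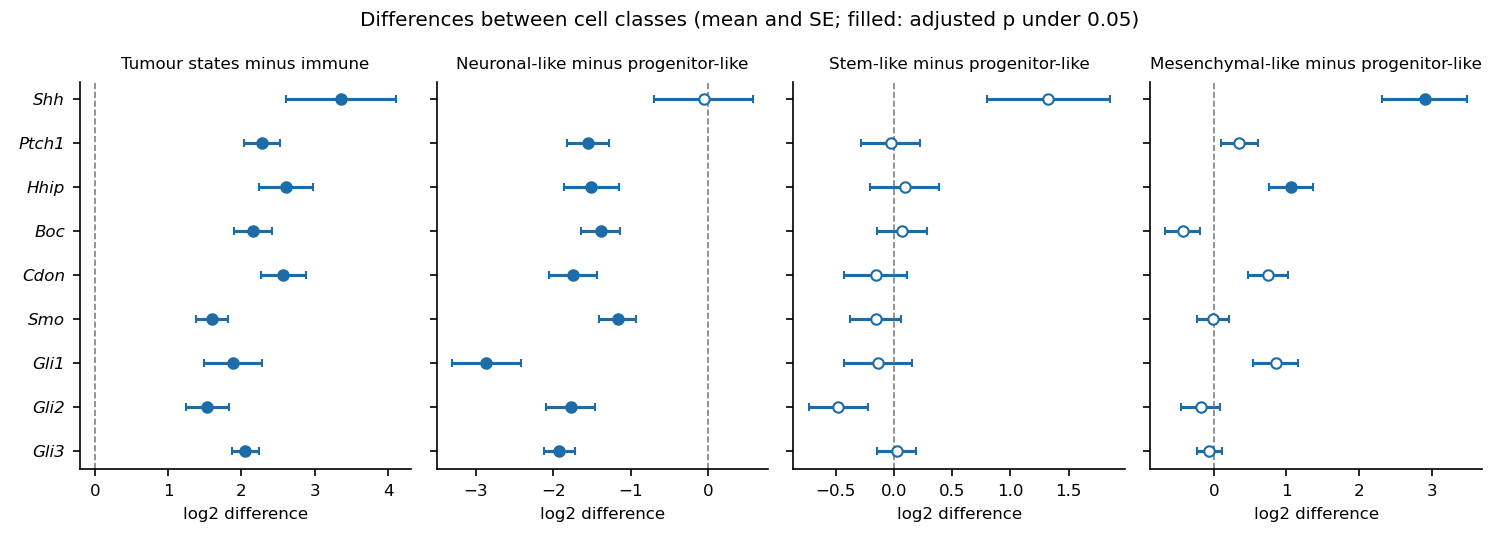
Log2 difference (horizontal axis) of each of the 9 genes (vertical axis) in 1 panel per comparison of cell classes; points are edgeR estimates over tumours, bars their SE, and filled points have an adjusted p under 0.05. Of the 9 genes, 8 are lower in neuronal-like than progenitor-like cells, and Shh at 2.90 and Hhip at 1.07 are the 2 filled points of the mesenchymal-like panel.

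Between stem-like and progenitor-like cells none of the 9 genes was called, beside 4.14% of all genes, 3.20% higher and 0.935% lower. DESeq2 also called 0, and 1 of the 9 had an unadjusted p under 0.05. That gene was Shh, higher by 1.33 (SE 0.53, edgeR adjusted p 0.184) and in 3 of 3 tumours. It was called without the filter on low counts (1.32, adjusted p 0.0364), with stricter gates (1.60, adjusted p 0.0339) and without tumour 3 (1.18, adjusted p 0.0187). With cells thinned to 2000 UMIs Shh was too sparse to be tested, and over the other alternatives its adjusted p ran from 0.0187 to 0.990. The differences of the targets were smaller, with Ptch1 at -0.03 (SE 0.25), Hhip at 0.09 (SE 0.30) and Gli1 at -0.14 (SE 0.29). Of 24 other pathway genes only Mycn was called, and it was lower (-1.02).

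Mesenchymal-like cells had more ligand and more Hhip than progenitor-like cells. Shh was higher by 2.90 on the log2 scale, 7.48-fold (SE 0.58, edgeR adjusted p 0.00112), and Hhip by 1.07, 2.09-fold (SE 0.30, adjusted p 0.0178), both in 3 of 3 tumours. These were 2 of 9 genes, beside 17.0% of all genes called, 11.7% higher and 5.27% lower. Gli1 (0.85, adjusted p 0.0620), Cdon (0.74, adjusted p 0.0698) and Ptch1 (0.35, adjusted p 0.390) did not pass. The Shh difference was 1.63 (adjusted p 7.05e-04) without tumour 3, which has 48 mesenchymal-like cells, and 3.46 (adjusted p 0.0651) without tumour 1, where Hhip differed by 0.65 and no gene of the set was called. Hhip also lost its call with DESeq2 (1.11, adjusted p 0.0521), with classes from clusters (0.59, edgeR adjusted p 0.322) and without the tumour block (0.98, adjusted p 0.399), while Shh was called in these fits. Of the 869 cells in the mesenchymal-like gate, 321 lay in the cluster named mesenchymal and 332 in the cluster named stem. With cells thinned to 2000 UMIs Shh was not among the genes tested and Hhip was called (1.55, adjusted p 3.48e-04), and over the other alternatives the adjusted p of Shh ran from 6.25e-07 to 0.0651.

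Among the other pathway genes 2 of 24 were higher and 2 lower in mesenchymal-like cells. Foxf1 (4.32) and Foxf2 (3.39) were higher, Mycn (-1.36) and the kinase Gsk3b (-0.74) lower. Of 9 tested factors of the ventral neural tube and floor plate, 1 was higher, Foxa1 (1.42), and 4 were lower, among them Olig2 (-3.13), Foxa2 (-2.50) and Isl1 (-2.36). Markers of mural cells, which also make collagen, were summed at 0.954, 0.774 and 1.99 UMIs per 10000 in mesenchymal-like cells and 0.0908, 0.122 and 0.177 in progenitor-like cells, against 215, 158 and 276 in mural cells. Stem-like markers were at 19.7, 18.6 and 13.3 against 21.4, 21.2 and 18.7. Their part in the result was not tested. Smarcb1 in mesenchymal-like cells stood at 0.373, 0.353 and 2.14 CPM, against 56.1 to 72.9 in mural cells, and Shh in mural cells was below that in mesenchymal-like cells in all 3 tumours.

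Between cycling and other tumour cells 2 of the 9 genes were called higher, Hhip and Ptch1, a share close to the 19.6% of all genes called higher. In tumour-state cells with and without summed cycling markers Shh was at 24.5 and 21.0 CPM in tumour 1, 17.0 and 16.4 in tumour 2 and 4.83 and 7.73 in tumour 3. Hhip was at 45.2 and 23.5, 43.9 and 24.5, and 70.0 and 57.0. Ptch1 was at 351 and 320.2, 389.9 and 339.8, and 375 and 318. Cycling cells were the higher in each tumour for Hhip and Ptch1 and in tumours 1 and 2 for Shh. Tested within states and tumours, Hhip was higher by 0.52 (SE 0.18, edgeR adjusted p 0.0273) and Ptch1 by 0.12 (SE 0.04, adjusted p 0.0410), both in 3 of 3 tumours, beside 45.2% of 12967 genes called, 19.6% higher and 25.5% lower. Shh differed by -0.14 (SE 0.22, adjusted p 0.620), with the same sign in 3 of 3 tumours. With cells thinned to 2000 UMIs neither Hhip nor Ptch1 was called and Ptch1 turned to -0.0551. Neither was called without tumour 2, with classes from clusters or without the tumour block. Of 25 other pathway genes 5 were higher and 4 lower, among them Evc (0.62), Prkaca (0.47), Bcl2 (0.36), Ccnd2 (-0.50), Scube2 (-1.13) and Scube1 (-1.28), the last 2 being secreted proteins that help release the ligand. The housekeeping genes also moved, 4 higher and 2 lower.

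Cells with a Shh UMI more often held a UMI of a target gene than other tumour-state cells of the same tumour, at the same depth of 2000 UMIs. Any of Gli1, Ptch1 or Hhip was found in 72 of 121 Shh-positive tumour-state cells of tumour 1 (59.5%, exact 95% binomial interval 50.2 to 68.3%), 26 of 54 of tumour 2 (48.1%) and 12 of 19 of tumour 3 (63.2%). In cells without a Shh UMI the shares were 40.2%, 41.5% and 38.6%. The positive cells were higher in each tumour, and the ranges of the shares over tumours did not overlap, but the difference in tumour 2 was within counting error. With doublets kept, the exact 95% binomial interval of its positive cells was 34.0 to 61.0% (27 of 57), against 41.4% of its negative cells. The difference averaged 16.9 points (SD 9.24, n = 3), and flipping the signs of the 3 differences (exact permutation, two-sided) had p = 0.25, the smallest that 3 tumours allow. Ptch1 alone was found in 52.1%, 46.3% and 63.2% of positive and 37.5%, 39.1% and 36.1% of negative cells. Hhip was found in 14.0%, 7.41% and 15.8% against 3.17%, 3.55% and 6.67%. Gli1 differed by 1.22, 2.94 and 8.57 points, from 5, 3 and 2 positive cells.

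**Figure D4:**
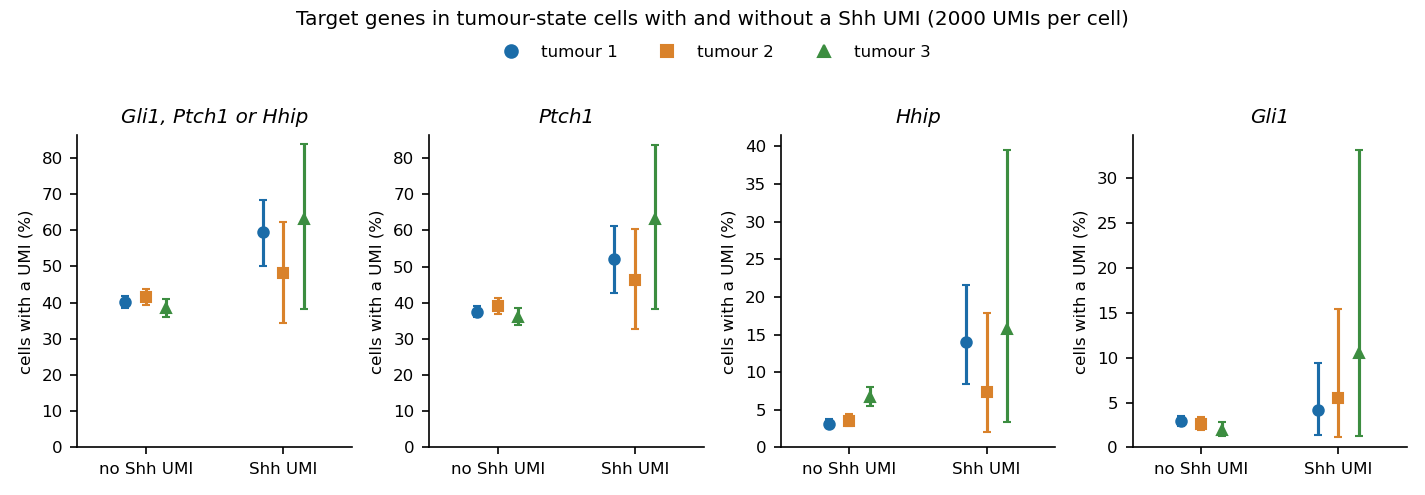
Share of tumour-state cells (%, vertical axis) with a UMI of each gene or gene group, in cells without and with a Shh UMI (horizontal axis), each cell thinned to 2000 UMIs; points are tumours and bars are exact 95% binomial intervals. Any of Gli1, Ptch1 or Hhip is found in 48.1% to 63.2% of Shh-positive cells and 38.6% to 41.5% of the others.

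The count test of the same contrast used sums per tumour and state of at least 20 cells, which left 4 pairs of sums, 3 of tumour 1 and 1 of tumour 2. The 3 pairs of tumour 1 are states of 1 mouse, so the SE and p of this test do not measure the spread between mice. Hhip was higher in Shh-positive cells by 1.62 on the log2 scale (SE 0.40, edgeR adjusted p 0.0198), in 2 of 2 tumours. It was the only 1 of 7 tested genes of the set called, beside 0.406% of 7635 genes called, 0.131% higher and 0.275% lower, and the call was lost with DESeq2 (1.59, adjusted p 0.571), with classes from clusters (1.33, edgeR adjusted p 0.168), without the filter on low counts (1.44, adjusted p 0.0684) and without the tumour block (1.60, adjusted p 0.0814). Ptch1 differed by 0.47 (adjusted p 0.354).

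A test with 1 pair of sums per tumour, chosen after the data were seen and including ungated cells, took in all 3 tumours, with 150, 76 and 37 positive cells. In it Hhip was at 90.0 CPM in positive and 21.2 in negative cells of tumour 1, 39.5 and 22.8 in tumour 2, and 162 and 49.6 in tumour 3, from 27, 6 and 12 UMIs in the positive cells. Ptch1 was at 540 and 314, 368 and 347, and 730 and 335. Both were higher in positive cells of every tumour, least in tumour 2. Hhip differed by 1.63 (SE 0.31, edgeR adjusted p 9.65e-05) and Ptch1 by 0.60 (SE 0.15, adjusted p 0.0109), 2 of 8 genes tested beside 0.846% of 12174 genes. Of the other pathway genes Sfrp1, a secreted Wnt inhibitor, was higher by 1.79 (edgeR adjusted p 0.0395) and the co-receptor Gas1 was lower (-0.82, adjusted p 0.0428). Tumour 3 stood apart for both. Sfrp1 was at 20 and 15.3 CPM in positive and negative cells of tumour 1, 13.2 and 9.78 in tumour 2, and 162 and 7.93 in tumour 3, from 6, 2 and 12 UMIs in the positive cells. Gas1 was at 83.3 and 92.5, 118 and 165, and 94.6 and 416. In the test of tumours 1 and 2 within states, Sfrp1 differed by 0.26 (edgeR adjusted p 0.987) and Gas1 by -0.46 (adjusted p 0.933), and neither was called.

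Marker levels also differed between cells with and without a Shh UMI, some in 1 direction and some not. Mesenchymal-like markers were summed at 13.1, 12.0 and 9.19 UMIs per 10000 in positive cells against 8.52, 9.25 and 2.17 in negative cells, stem-like markers at 45.3, 49.9 and 38.0 against 39.3, 36.1 and 24.1, and neuronal-like markers at 4.90, 7.24 and 0.811 against 6.45, 8.60 and 4.04. Of the 8 mesenchymal-like markers, 8, 8 and 6 were seen in positive cells of tumours 1, 2 and 3 and all 8 in negative cells of each. Lgals1 was at 523, 230.3 and 203 CPM in positive against 165, 110.4 and 90.6 in negative cells, whereas Col1a1 was at 56.7, 145 and 0 against 73.0, 114 and 2.64. Cycling markers were at 10.2, 3.75 and 5.14 UMIs per 10000 against 5.59, 4.49 and 8.26, higher in positive cells of tumour 1 only, and progenitor-like markers at 17.1, 17.1 and 16.2 against 20.3, 14.6 and 20.7. In the test that pools states, the part of these markers in the result was not tested. The test of tumours 1 and 2 above compared cells within states, but not within cycling and other cells.

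Genes with the most similar pattern over 29 class sums of the 3 tumours, by Pearson's r of log2(CPM + 1) centred per tumour, differed between ligand and receptor. For Shh they were Med14 (0.88), Gm26523 (0.81), Lrig3 (0.81), Cacna1g (0.80) and Cox8c (0.80), with Ptch1 at rank 7 (0.79) of 13159 genes. For Ptch1 they were Fgfr1 (0.94), Tmem132c (0.94), Fjx1 (0.92), Trps1 (0.92) and Fzd1 (0.92), with Gli3 as the nearest of the set at rank 34. For Gli1 they were 6030419C18Rik (0.81), Gjb2 (0.80), Boc (0.79), Adk (0.78) and Gpr3 (0.78). The sums share libraries and depth, and the values are a description only.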

How the data were processed

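The authors loaded dissociated cells of the 3 tumours on 10x Genomics droplets with a 3′ kit and, per the labels, processed the reads with Cell Ranger 3.1.0 on mm10. The deposited files hold raw UMI counts per gene and barcode, with no normalisation, in totals of 79529921, 40151353 and 67645602 for 12467, 9485 and 6428 barcodes, and every barcode holds at least 500 UMIs. The number of UMIs sets the counting error of each value.

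The 9 genes, the gene lists and the marker lists were chosen with earlier results of these data known, and the gate thresholds were set after marker scores and levels of the 9 genes had been seen. Barcodes with fewer genes than the 5th percentile, or with mitochondrial percentages more than 3 scaled MADs over the median of their tumour (ceiling 20%), were removed. Scrublet, run through Scanpy 1.11.5, marked 0 cells at its own threshold, so the highest scores were removed at a rate of 0.8% per 1000 cells. This left 20813 cells. A gate required at least 3 distinct markers and a minimum summed level (15 marker UMIs per 10000 for the progenitor-like, neuronal-like and mesenchymal-like gates, 30 for the stem-like gate). Cells past several tumour gates went to the gate exceeded by the largest factor, and cells past several non-tumour gates were set aside.

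Levels are CPM of the class sum, computed from the deposited counts, and shares are percent of cells. Counts from 3′ ends do not depend on transcript length, and levels were compared within a gene only. Sums of at least 20 cells were tested with edgeR 4.0.16 (TMM scaling, filterByExpr, quasi-likelihood test) across all genes, with class and tumour as terms. The tumour was a block because the sums compared come from the same animal. TMM scaling makes fitted differences depart from ratios of CPM. The tumours are separate mice. On simulated counts the mesenchymal-like comparison recovered 57.1% of changes of 1 and 77.0% of changes of 2 on the log2 scale, and the Shh-positive comparison 20.2% and 71.0%.

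The genes named are the 9 of the set, up to 6 other pathway genes per comparison that passed the threshold of 0.05 with 1 direction in all tumours, and the 5 genes most similar to Shh, Ptch1 and Gli1. Factors of the ventral neural tube and single values beyond this rule were named after their values were seen. Some genes of the lists are not reported here. Alternatives were DESeq2 1.42.0, RLE size factors, no filter, no tumour block, other cell filters and gates, clusters of integrated cells (Seurat 5.3.0), thinned cells and leaving out each tumour. Positions are from GENCODE M21 on GRCm38, 1-based, and promoter windows from RefSeq.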

Additional observations from a re-analysis of the deposited data

How the results depend on the processing

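The number of tumours (3), small gates and the sparse transcripts of Shh and Gli1 limit these results. The counts of called genes of the set that moved were as follows. Thinning cells to 2000 UMIs, which leaves 5 genes of the set in the tests of classes, gave 5 in tumour states against immune cells, 0 in vascular cells, 5 in neuronal-like cells, 1 in mesenchymal-like cells and 0 in cycling cells, where Ptch1 reversed to -0.0551. Classes from clusters gave 1 in vascular, 3 in glial and 4 in neuronal-like cells, 0 in cycling and 0 in Shh-positive cells. DESeq2 gave 1 in mesenchymal-like and 0 in Shh-positive cells. Without the filter on low counts 1 was called in stem-like, 1 in cycling and 0 in Shh-positive cells. Keeping doublets gave 1 in vascular cells, and the stricter gates gave 1 in vascular and 1 in stem-like cells. With 1 pair of sums per tumour, chosen after seeing the data, 2 were called in Shh-positive cells. Without the tumour block, that is without the pairing by animal, 1 was called in vascular, 1 in mesenchymal-like, 0 in cycling and 0 in Shh-positive cells, and the other counts stayed within 1.5 times. Leaving out each tumour gave 0 to 2 in vascular (0 without tumour 1 and without tumour 2), 2 to 6 in glial (2 without tumour 2, with glial sums of tumour 1 only), 0 to 1 in stem-like (1 without tumour 3), 0 to 3 in mesenchymal-like (0 without tumour 1) and 0 to 2 in cycling cells (0 without tumour 2). The mean share of cells with a Shh UMI was 1.26% at 1000 UMIs per cell and 5.21% without thinning. Of the differences of single genes of the set under alternatives, 682 kept direction and side of the threshold, 63 fell short of it, 17 came past it, 43 changed sign without a call and 1 reversed; why they did was not tested. The Shh-positive test was not run without tumour 1, without tumour 2, with the stricter gates or at 1000 UMIs, each of which leaves 1 tumour.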

Other observations

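Transcription factors of the ventral neural tube and floor plate, regions patterned by hedgehog signals, were measured in the same cells, and 9 of the 14 on the list could be tested. In tumour-state cells 7 of the 9 were higher than in immune cells (edgeR, beside 35.3% of all genes called higher and 66.6% in either direction). They were led by Nkx6-1 (3.40 on the log2 scale), Isl1 (3.12) and Nkx2-1 (3.03). Isl1, a factor of ventral neurons, was at 128, 109 and 265 CPM in neuronal-like cells of tumours 1, 2 and 3 and at 33.9, 59.9 and 18.2 in progenitor-like cells, with no overlap. It was higher in neuronal-like cells by 2.11 (SE 0.41, edgeR adjusted p 5.81e-04), while Olig2 (-2.78) and Nkx6-1 (-1.20) were lower there.

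Nkx6-2, a homeobox factor of ventral progenitors, was at 12.3, 13.2 and 10.6 CPM in stem-like cells and at 4.81, 2.72 and 4.93 in progenitor-like cells, again with no overlap. It was higher in stem-like cells by 1.56 (SE 0.34, edgeR adjusted p 0.0106), and Isl1 was lower (-1.75, adjusted p 0.0182). Foxa2, a floor plate factor, was at 45.9 and 25.6 in progenitor-like cells of tumours 1 and 2 and at 1.20 in tumour 3. Nkx2-1 was at 15.2, 27.9 and 0.514, so the third tumour was the low one for both genes.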
